A study of Homo sapiens with 11 samples.

Results

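CDT2 regions without CUL4A and without H3K9me3 made up 7998 of the 27704 CDT2 ChIP-Seq regions on chromosomes 1 to 22, a share of 28.9% (95% confidence interval by the Wilson method 28.3 to 29.4%). A region was chosen when it shared no base with any region of the CUL4A list and no base with any region of the H3K9me3 list, so these regions were chosen by their CDT2, CUL4A and H3K9me3 region calls, and the absence of CUL4A and H3K9me3 is not a result. Of the other CDT2 regions, 3462 met H3K9me3 only, 7674 met CUL4A only and 8570 met both. The chosen regions are called members here.

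Cells duplicate their genome from many replication origins. The licensing factors loaded there are removed as replication proceeds, so that no origin is used again in the same cell cycle. CUL4A is the scaffold of the ubiquitin ligase CRL4, and CDT2 is a substrate receptor of that ligase that recognises licensing factor CDT1, the CDK inhibitor p21 and the methyltransferase SET8 when they are bound to PCNA on chromatin. SKP2 is the F-box receptor of the SCF ligase, a separate route to CDT1 degradation, whereas H3K9me3 marks heterochromatin and H3K4me3 marks active promoters. RepID, also named PHIP, is a receptor of the same family as CDT2 and binds a group of origins.

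The study mapped these proteins, marks and origins by sequencing in U2OS, an osteosarcoma line, and HCT116, a colon carcinoma line, with unsynchronized, untreated cultures for the ChIP-Seq samples. The lists of CUL4A, H3K4me3 and H3K9me3 regions and one list of origins came from U2OS cells with wild-type RepID, SKP2 regions came from HCT116 WT and HCT116 RepID KO cells, and a further list of origins came from HCT116 RepID KO cells. RepID KO cells lack RepID after gene editing. For CDT2, the description of the data names U2OS cells that stably overexpress full-length RepID with a FLAG tag, whereas the study's own text speaks of U2OS WT cells. If the former is right, the members' lack of CUL4A and a difference between the U2OS cultures cannot be told apart. Each of the 8 lists came from 1 sample, 3 further samples were inputs without a list, and the input of the FLAG-RepID FL cells carries a cell line label of HCT116. No test over samples was therefore possible, regions of 1 list are not replicates of a condition, and the intervals given for shares cover counting error only. The depth of the samples is unknown, and lists of regions cannot be checked against markers of a cell line or against the knockout.

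The members were narrower and scored lower than the CDT2 regions of the other 3 classes. Their widths ran from 75 to 5317 bp with a median of 491 bp and quartiles of 348 and 653 bp. The median width was 525 bp for regions with H3K9me3 only, 563 bp with CUL4A only and 624 bp with both. A narrower region has less room to meet another list, so the choice by overlap and the width are linked by construction. The CDT2 score, a value of the authors on a scale that is not stated, started at 20 in every class. Its median was 24.37 in the members, with quartiles of 21.88 and 30.09 and a highest value of 585.35. It was 25.47 in the H3K9me3 only class, 27.33 in the CUL4A only class and 33.41 in the class with both. Scores were coarse, since 489 members carried the value 24.37.

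High scores were rare but present among the members. A score of at least 50 was found in 568 members, or 7.10% (6.56 to 7.69%), compared with 15% of all CDT2 regions and 26.9% of the regions with both partners. At least 100 was reached by 145 members, or 1.81%, compared with 4.88% of all CDT2 regions. The H3K9me3 only class was level with the members, at 7.28% and 1.91%. When all CDT2 regions were ranked into 5 equal groups by score, 780 members fell in the highest quintile, which began at 42.75. That was 9.75% of the members, and the background over all CDT2 regions was 20%. From the other side, members were 43.8% of the lowest score quintile and 14.1% of the highest, and 45.0% of the narrowest width quintile and 18.8% of the widest. The members therefore formed a larger part of the weak and narrow end of the CDT2 list than of its strong and wide end.

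Members met every other list of the series less often than CDT2 regions did as a whole. Sharing of at least 1 base was counted. U2OS origins, the sites of replication start mapped from short nascent DNA strands in that line, were met by 3486 members, or 43.6% (42.5 to 44.7%), and the background over all CDT2 regions was 62.9%. The share was 53.1% (51.5 to 54.8%) with H3K9me3 only, 71.4% (70.4 to 72.4%) with CUL4A only and 77.3% (76.4 to 78.2%) with both, so the intervals of the 4 classes were apart. H3K4me3 was met by 297 members, or 3.71% (3.32 to 4.15%), against a background of 9.61%. The H3K9me3 only class was level with the members at 3.76% (3.17 to 4.44%), and the classes with CUL4A stood at 11.8% and 15.5%.

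Against the lists from HCT116 cells, the members stood above the H3K9me3 only class at origins and near it at SKP2. Origins of HCT116 RepID KO cells were met by 1901 members, or 23.8% (22.8 to 24.7%), against a background of 44.2%. The H3K9me3 only class was lower than the members at 18.1% (16.8 to 19.4%), and the classes with CUL4A were at 61.9% and 58.2%. SKP2 regions of HCT116 WT cells were met by 538 members, or 6.73% (6.20 to 7.30%), against a background of 9.32% and 6.18% (5.43 to 7.03%) with H3K9me3 only. For SKP2 regions of HCT116 RepID KO cells the number was 403, or 5.04% (4.58 to 5.54%), against a background of 8.42% and 6.01% (5.26 to 6.85%) with H3K9me3 only. The intervals of these classes overlapped at both SKP2 lists. Cell line and RepID genotype differ together between the origin lists, and their parts in any difference between those lists cannot be told apart.

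**Figure D1:**
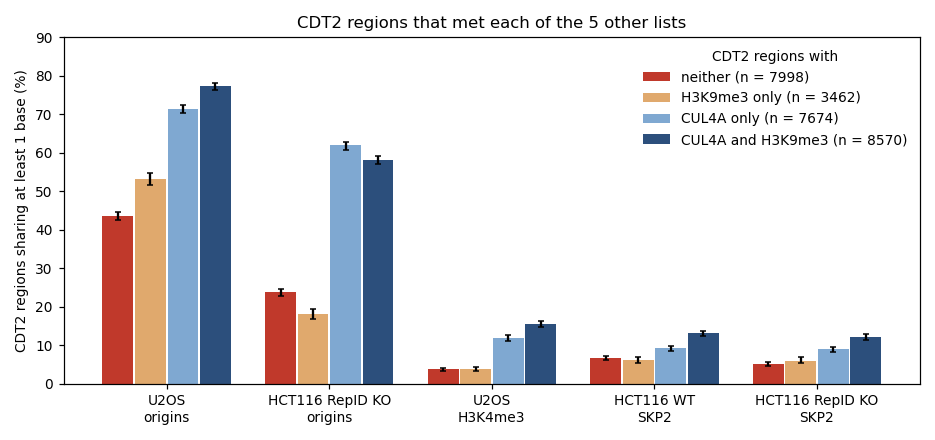
Share of CDT2 regions (%) that shared at least 1 base with each of 5 other lists, for the 4 classes of CDT2 regions, with bars from 0 and Wilson 95% intervals as error bars. Members (neither) reached 43.6% at U2OS origins and 23.8% at HCT116 RepID KO origins, below both classes with CUL4A at each of the 5 lists.

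The order of members below other CDT2 regions was found chromosome by chromosome. At U2OS origins the members' share was lower than that of all other CDT2 regions on 22 of 22 chromosomes, with a median over chromosomes of 42.7% against 69.7%. It ran from 24.6% on chromosome 13 to 53.3% on chromosome 12 in the members. The same held on 22 of 22 chromosomes for HCT116 RepID KO origins, for H3K4me3 and for SKP2 of RepID KO cells. For SKP2 of WT cells it held on 20 chromosomes, the exceptions being chromosomes 14 and 16. Chromosomes share the libraries, so these are not independent samples.

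Many members met nothing else in the series. No region of the other 5 lists was shared by 3360 members, or 42.0%, compared with 16.8% of the other CDT2 regions. At least 1 of the 5 lists was met by 4638 members (58.0%, 56.9 to 59.1%), with a background of 75.9%. The H3K9me3 only class was near the members at 62.5% (60.9 to 64.1%), and the classes with CUL4A stood at 86.6% and 88.6%. A U2OS origin and no other list was the most frequent combination, with 2165 members or 27.1%, near the 24.0% of all CDT2 regions. Origins of both cell lines and nothing else were met by 754 members, or 9.43%, compared with 22.3% of all CDT2 regions. An HCT116 RepID KO origin alone was met by 635, or 7.94%, compared with 6.91%. Members with 4 of the 5 lists numbered 55, or 0.688%, compared with 3.06% of the other CDT2 regions. All 5 were met by 1 member, or 0.0125%, compared with 0.304%.

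Origins listed in both lines were scarce in the members and in the H3K9me3 only class. They were met by 1061 members, or 13.3% (12.5 to 14.0%), against a background of 34.4%, and by 13.0% (11.9 to 14.2%) of the H3K9me3 only class. Of the members at a U2OS origin, 30.4% (28.9 to 32%) also met an HCT116 RepID KO origin, compared with 54.7% over all CDT2 regions. Of the members at an HCT116 RepID KO origin, 55.8% (53.6 to 58.0%) also met a U2OS origin, compared with 77.8%. Members at an origin were thus more often at one listed in 1 line only than CDT2 regions at an origin were as a whole.

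Few members with SKP2 in one HCT116 genotype had it in the other, as was so for CDT2 regions as a whole. Both SKP2 lists were met by 120 members, or 1.5% (1.26 to 1.79%), against a background of 2.43%. These were 22.3% (19 to 26%) of the members with SKP2 in WT cells and 29.8% (25.5 to 34.4%) of those with SKP2 in RepID KO cells, and over all CDT2 regions the shares were 26.1% and 28.9%. Of all SKP2 regions on these chromosomes, 533 of the WT list (4.47%) and 395 of the RepID KO list (2.92%) held a member, although the RepID KO list was the longer, with 13518 regions against 11929. SKP2 regions with another CDT2 region and no member were ordered the same way, with 16.9% of the WT list and 14.0% of the RepID KO list. More than 1 member was held by 6 of the former and 8 of the latter. SKP2 regions that held a member had a median score of the authors of 775 in WT cells, where the whole list had 380.0, and of 489 in RepID KO cells, where the whole list had 359.5. Those with another CDT2 region and no member had still higher medians of 906 and 679. With 1 sample of each genotype, the difference between WT and RepID KO could not be tested.

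The H3K4me3 regions and U2OS origins that held members were close to their lists in median width and strength, and the HCT116 RepID KO origins that held members were wider and scored higher than theirs. The 293 H3K4me3 regions with a member had a median width of 2310 bp and a median fold enrichment over the control of 7.36, and the whole list had 1902 bp and 7.10. The H3K4me3 regions with another CDT2 region and no member were narrower, with a median of 853 bp, and had a lower median fold of 5.61. The 3328 U2OS origins with a member had a median width of 2500 bp and a median score of 107, compared with 2400 bp and 93.0 for all 126050. U2OS origins with another CDT2 region and no member had 3000 bp and 146. The 1647 HCT116 RepID KO origins with a member were above their list, with 3000 bp and a score of 221 against 2000 bp and 153. Those with another CDT2 region and no member were wider and scored higher still, with 3800 bp and 367. Of the members at U2OS origins, 69.4% lay wholly inside the origin, and of those at HCT116 RepID KO origins 65.8%. In the other 3 classes these shares were between 70.4% and 75.2% and between 60.5% and 75.5%. SKP2 regions, by contrast, covered a median of 54.8% of a member in WT cells and wholly contained 3.16%. In the other classes these medians were between 50.3% and 56.7%, and between 0.713% and 2.12% were wholly contained.

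Coverage by origins rose at the members' own position above that of their surroundings. The centres of the members were covered by U2OS origins in 41.7% of cases, and positions 9 to 10 kb away in 20%, a ratio of 2.09. Surroundings of the classes with CUL4A were themselves richer in U2OS origins, at 34.1% and 33.6%, whereas those of the H3K9me3 only class were level with the members at 20.1%. The ratio of centre to surroundings was 2.03 for the CUL4A only class and 2.57 for the H3K9me3 only class. The members thus stood lower than the CUL4A only class in coverage at the centre and in the surroundings, and had a nearly equal ratio.

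At HCT116 RepID KO origins the local rise was small in the members, from 15.4% to 22%, a ratio of 1.42, compared with 1.38 in the H3K9me3 only class and 1.81 and 1.87 in the classes with CUL4A. For H3K4me3 the rise was from 2.32% to 3.10%. SKP2 showed the steepest rise relative to its surroundings in the members, as in every other class. SKP2 of WT cells covered 4.84% of the members' centres and 0.388% of positions 9 to 10 kb away, a ratio of 12.5, and SKP2 of RepID KO cells covered 3.39% and 0.395%, a ratio of 8.58. In the other classes these ratios were between 11 and 16.9 for WT cells and between 9.05 and 14.4 for RepID KO cells. The SKP2 regions are the shorter ones, with medians of 361 and 369 bp, and a short partner gives a sharper profile by construction.

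**Figure D2:**
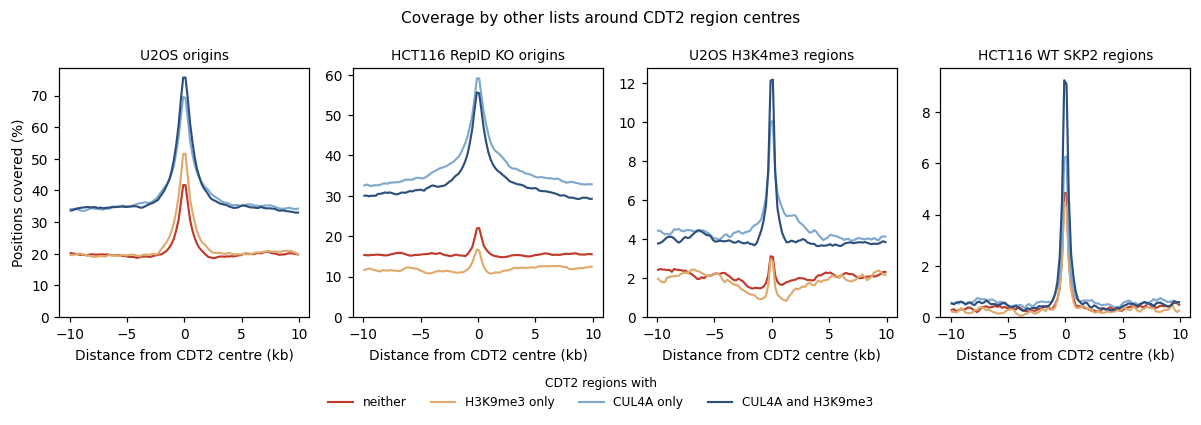
Percentage of positions covered by 4 other lists against the distance (kb) from the centre of CDT2 regions, in bins of 200 bp, with 1 line for each class of CDT2 regions and a separate vertical scale in each panel. In the members (neither), coverage by U2OS origins rose from 20% at 9 to 10 kb to 41.7% at the centre, and coverage by SKP2 of HCT116 WT cells from 0.388% to 4.84%.

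The share at U2OS origins remained lower in the members than in the other 3 classes together when regions of like score were compared. In the lowest score quintile it was 37.3% (35.4 to 39.3%) in the members and 62.4% (60.6 to 64.1%) in the other 3 classes together. In the fourth quintile it was 50.6% (47.8 to 53.5%) against 75.1%, and in the highest 42.2% (38.8 to 45.7%) against 75.9%. Nearer to the members in the lowest quintile was the H3K9me3 only class, at 41.7% (38.3 to 45.1%), with an interval that overlapped theirs. The members' share rose over the lower 4 quintiles and was lower in the fifth. The H3K9me3 only class (63.4% and 61.8%) and the CUL4A only class (75.1% and 70.9%) were also lower in the fifth quintile than in the fourth, and the class with both was not (79.0% and 80.1%). Among regions of like width the order was the same, with 30.6% against 53.3% in the narrowest quintile and 53.8% against 78.8% in the widest. The H3K9me3 only class lay between, at 37.5% (34.0 to 41.0%) and 66.0% (61.7 to 70.0%). H3K4me3 moved little with score in the members, from 3.81% to 4.49%, and from 8.10% to 19.3% in the others.

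Overlap with the lists from HCT116 cells rose with the CDT2 score in the members and in the other 3 classes together. At HCT116 RepID KO origins the members' share was 16.1% (14.7 to 17.6%) in the lowest quintile, 30.0% (27.5 to 32.7%) in the fourth and 59.0% (55.5 to 62.4%) in the highest, where the others had 45.7%, 50.8% and 66.6% (65.3 to 68.0%). The distance between members and others thus narrowed towards the high scores. SKP2 of WT cells was met by 3.15% of the members in the lowest quintile, 10.1% in the fourth and 25.9% (22.9 to 29.1%) in the highest, and by 4.39%, 8.35% and 24.2% (23 to 25.5%) of the others, so the intervals overlapped at the top. The H3K9me3 only class went from 2.75% to 24.1%. SKP2 of RepID KO cells rose from 2.45% to 16.0% (13.6 to 18.8%) in the members and from 4.84% to 20.2% (19.1 to 21.4%) in the others.

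**Figure D3:**
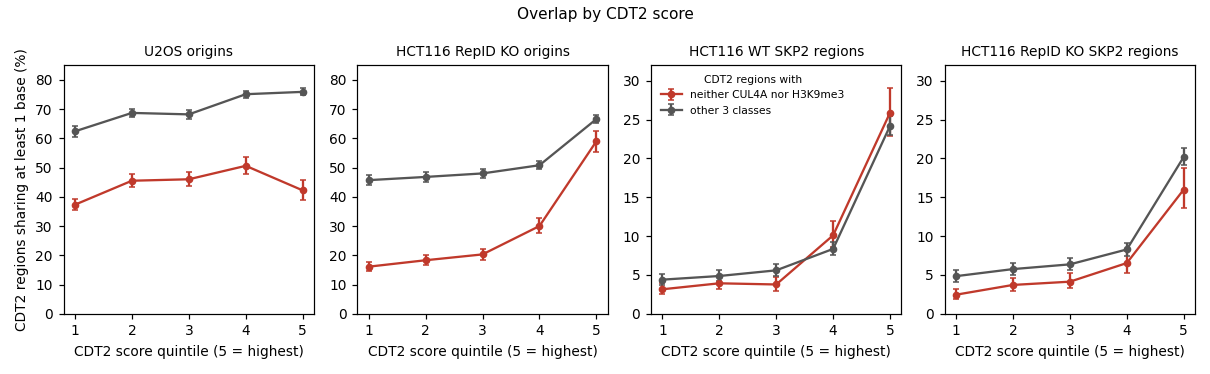
Share of CDT2 regions (%) that met each of 4 lists against the quintile of the CDT2 score, for members (red) and the other 3 classes together (grey), with Wilson 95% intervals; the vertical scale of the SKP2 panels differs from that of the origin panels. The members' share at HCT116 RepID KO origins rose from 16.1% to 59.0%, and at U2OS origins it was 42.2% in the highest quintile.

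In the highest score quintile, members thus met origins of HCT116 RepID KO cells (460 of 780) more often than origins of U2OS cells (329 of 780), the line from which CDT2 came. The CUL4A only class of that quintile had the same order, with 1051 and 994 of 1402, although its intervals overlapped. The classes with H3K9me3 had the opposite order. Their numbers were 157 and 244 of 395 with H3K9me3 only, and 1964 and 2375 of 2964 with both. In the members, the difference was smaller when clusters were counted once. The 460 members lay in 355 distinct HCT116 RepID KO origins, of which 10 held at least 5 members each and 102 members in all, with 23 in the fullest. When members less than 20 kb apart were joined and only the one with the highest score was kept, 579 remained. Of these 57.5% (53.4 to 61.5%) met an HCT116 RepID KO origin and 51.1% (47.1 to 55.2%) a U2OS origin, with intervals that overlapped. Leaving out as well those within 2 Mb of the longest empty stretch of the chromosome, described next, gave 59.4% (55.1 to 63.6%) and 54.2% (49.9 to 58.5%) of 520. Both shares in each of these comparisons came from the same regions. Overlap of their intervals therefore does not measure the difference between them, which was not tested.

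Members were gathered beside the longest stretch of each chromosome that held no region of any list. In human assemblies such stretches are often unsequenced centromeres or neighbouring repeats, and whether they are so here was not tested, since no hg19 genome was used. Within 2 Mb of the stretch lay 759 members, which were 46.2% (43.8 to 48.6%) of the CDT2 regions there. Farther away the members' share of CDT2 regions was between 26.4% at 10 to 20 Mb and 28.7% at 2 to 5 Mb. Those 759 were 9.49% of all members, and the background for lying within 2 Mb was 5.93% of all CDT2 regions.

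The members beside the empty stretch also differed from the rest in the lists they met. Their median score was 29.60, compared with 24.37 for the 7239 members farther away. U2OS origins were met by 25.3% (22.3 to 28.5%) of them and by 45.5% (44.4 to 46.7%) of those farther away, and HCT116 RepID KO origins by 36.8% (33.4 to 40.2%) and 22.4% (21.5 to 23.4%). The order of the origin lists was therefore turned around beside the stretch. SKP2 of WT cells was met by 4.22% there and by 6.99% farther away. The other CDT2 regions within 2 Mb met U2OS origins in 56.9% of cases and HCT116 RepID KO origins in 60.7%, compared with 71.4% and 52.2% farther away.

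**Figure D4:**
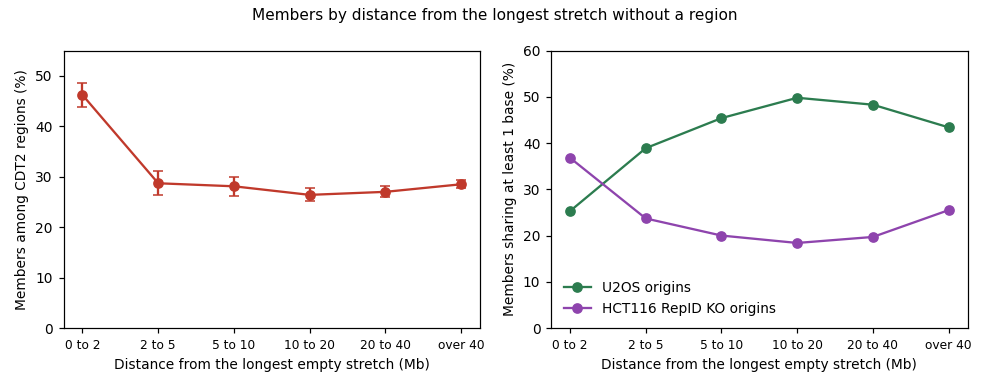
Left, members as a percentage of the CDT2 regions against the distance (Mb) from the longest stretch of the chromosome without a region of any list, with Wilson 95% intervals; right, the percentage of members that met U2OS origins and HCT116 RepID KO origins in the same distance classes. Members were 46.2% of CDT2 regions within 2 Mb, where 25.3% met a U2OS origin and 36.8% an HCT116 RepID KO origin.

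Among members of the highest score quintile the stretch and the rest differed further. Within 2 Mb were 194 of them, of which 14.9% met a U2OS origin and 56.2% an HCT116 RepID KO origin. The 586 farther away met U2OS origins in 51.2% (47.2 to 55.2%) of cases, HCT116 RepID KO origins in 59.9% (55.9 to 63.8%) and SKP2 of WT cells in 30.7% (27.1 to 34.6%). The 4432 other CDT2 regions of that quintile at the same distance stood at 78.3%, 65.9% and 23.9% (22.7 to 25.2%). High-scoring members away from the stretch were therefore below the others at origins of both lines and above them at SKP2 of WT cells. For SKP2 of RepID KO cells the shares were 18.3% (15.3 to 21.6%) and 19.8% (18.6 to 21%), with intervals that overlapped, and for H3K4me3 they were 5.46% and 19.9%.

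Most members stood apart from other members along the chromosome, and a small number formed dense runs. Distances were taken between members only, so a member apart from the others can have another CDT2 region close by. Spacing and runs were not counted for the other CDT2 regions, so neither is shown to be particular to the members. The median distance between neighbouring members was 152285 bp, and 5947 members (74.4%) had no other member within 20 kb. Joining members less than 20 kb apart gave 55 runs of at least 5 members, which held 630 members. In windows of 1 Mb the median was 2 members, and 16 windows with at least 20 members held 515 members, or 6.44%. The windows with most members were 118 to 119 Mb of chromosome 11 and 29 to 30 Mb of chromosome 20 with 55 each, followed by 61 to 62 Mb of chromosome 7 with 54. The last of these had 61 CDT2 regions in all, so members were 88.5% of them.

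The dense runs differed in the origins they met. A run of 39 members at chr10:39076516-39146166 had 39 at an HCT116 RepID KO origin and 8 at a U2OS origin, and 6 members met SKP2 in each HCT116 list. A run of 37 at chr7:61739425-61802659 had 37 at an HCT116 RepID KO origin and 1 at a U2OS origin. Both were within 2 Mb of the longest empty stretch. The run of 24 at chr2:89830430-89861718 was not, and had 24 members at an HCT116 RepID KO origin, 0 at a U2OS origin and a median CDT2 score of 84.76, the highest of the 5 longest runs. It lay only a little beyond 2 Mb, since the empty stretch of chromosome 2 began at 92326201. Its highest-scoring member met an HCT116 RepID KO origin of 32000 bp with a score of 38604. That of the run of 39 met one of 78400 bp with a score of 32053, where the list had a median score of 153. On chromosome 20 the order of the origin lists was the opposite, with 18 of 30 members at chr20:29843084-30005489 at a U2OS origin and 3 at an HCT116 RepID KO origin. A run of 19 at chr16:34180306-34197146 again had 19 at an HCT116 RepID KO origin and 0 at a U2OS origin. None of the members in these 5 runs met H3K4me3. Neighbouring members often lay in the same origin region, the fullest of which held 39 members, so they are not independent.

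The members were spread unevenly over the chromosomes. Chromosome 5 held the most, with 935 members, and had the highest share of CDT2 regions that were members, 41.9% (39.8 to 43.9%). That share was high on both sides of the empty stretch of that chromosome, with 39.8% (35.7 to 44.2%) before it and 42.5% (40.2 to 44.8%) after it. Chromosomes 8 and 21 followed with 35.4% and 35.2%. The lowest shares were on chromosome 22 with 15.1% (12.6 to 18.0%) and on chromosome 19 with 15.7% (13.7 to 17.8%), although chromosome 19 was among those densest in CDT2 regions, with 20 per Mb. Per Mb, members were most frequent on chromosome 20 with 5.57 and least frequent on chromosome 13 with 0.530. The copy number of chromosomes in these lines was not used here, and its part in these densities was not tested.

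**Figure D5:**
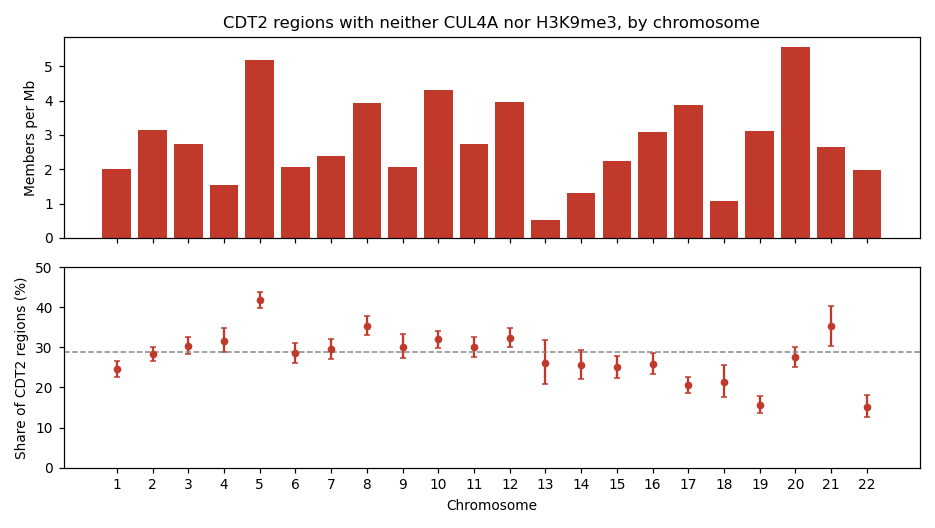
Members per Mb (upper bars, from 0) and members as a percentage of the CDT2 regions of each chromosome (lower points, Wilson 95% intervals; dashed line, 28.9% over chromosomes 1 to 22). Chromosome 5 was highest in share with 41.9%, and chromosomes 22 and 19 were lowest with 15.1% and 15.7%.

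Most members lay farther than a few bases from the nearest CUL4A and H3K9me3 regions. These distances are to the lists that chose the members, so they are a description. The nearest CUL4A region was at a median of 16775 bp (quartiles 5685 and 46782 bp) and the nearest H3K9me3 region at 15114 bp (6359 and 30840 bp). Within 1 kb, 263 members had a CUL4A region and 280 an H3K9me3 region. Just inside the rule, 11 members lay within 200 bp of a CUL4A region, with a median score of 25.05. Just outside it, 130 CDT2 regions shared at most 200 bases with CUL4A and had a median score of 29.60. Their median width was 225 bp. Short regions wholly within a CUL4A region were counted too, so these 130 are not only regions at the edge. For H3K9me3, 33 members within 200 bp had a median score of 23.44, and 353 regions sharing at most 200 bases had 22.96.

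Members far from both partners met origins less often than members with a partner nearby. No CUL4A and no H3K9me3 region within 10 kb was found for 3698 members, 46.2% of them. U2OS origins were met by 37.0% (35.5 to 38.6%) of these and by 49.2% (47.7 to 50.7%) of the 4300 with a partner nearby. At HCT116 RepID KO origins the shares were 14.8% (13.7 to 16.0%) and 31.5% (30.1 to 32.9%), at SKP2 of WT cells 5.06% and 8.16%, and at H3K4me3 3.0% and 4.33%. Because this split again uses the lists that chose the members, it is a description.

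The 8 members with the highest CDT2 score show how varied the strong sites were. Positions are in the hg19 coordinates of the deposited lists, counted from 1, and no gene was assigned, as no hg19 annotation was used. The highest was chr12:131530145-131532629, with a width of 2485 bp and a score of 585.35. It met origins of both lines and an H3K4me3 region with a fold of 7.69, and its nearest CUL4A region was 4144 bp away. The second, chr16:46431963-46436278 with a score of 509.72, was 4316 bp wide, met no origin, and contained an SKP2 region of WT cells with a score of 3342. It lay within 2 Mb of the empty stretch. The third, chr5:68260346-68262337 with a score of 425.86, likewise met only SKP2 of WT cells and was 60945 bp from CUL4A and 62313 bp from H3K9me3.

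SKP2 in both HCT116 lists was found at 3 of these 8. The member chr10:69676000-69676490, 491 bp wide with a score of 373.60, met the SKP2 regions of WT and RepID KO cells, with scores of 403 and 633, and no origin. The member chr10:85945806-85947595, with a score of 364.89, met both SKP2 lists, with scores of 3649 and 2205, and origins of both lines with low scores of 80.0 in U2OS and 92.0 in HCT116 RepID KO cells. The third was chr10:39109989-39112941, with a score of 336.89, inside the run of 39 on chromosome 10 and in an HCT116 RepID KO origin of 78400 bp. The remaining members, chr2:89852031-89854295 and chr2:109815769-109816413, with scores of 357.98 and 350.48, each met an HCT116 RepID KO origin and SKP2 of WT cells, and no U2OS origin. SKP2 of WT cells was thus met by 7 of the 8, compared with 25.9% of the members and 24.2% of the other CDT2 regions in the highest score quintile. That quintile began at a score of 42.75, whereas these 8 had at least 336.89, so regions of unlike score were compared. The share among other CDT2 regions of such high scores was not counted. H3K4me3 was met by 1 of the 8.

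Strong members were also found with H3K4me3 and with no other list. Second in score among those with H3K4me3 was chr15:27834749-27835424, with a score of 326.71, which met a U2OS origin of 5600 bp and an H3K4me3 region with a fold of 3.5. Among the 3360 members that met no other list, the highest were chr22:29515730-29516787, with a score of 240.99, and chr10:69666532-69666783, with a score of 186.08 and a width of 252 bp. The latter ranked 38 by score among all members and lay on the same part of chromosome 10 as chr10:69676000-69676490.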

How the data were processed

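The authors mapped the reads and called regions before they deposited the lists, and no reads were used here. hg19, MACS and SICER are named in the submitters' processing notes. The aligner and its settings are not given in the sources used here. CUL4A regions and origins were called with SICER (window 200 bp, gap 600 bp, false discovery rate 1e-05 for CUL4A and 0.0100 for origins). CDT2 and SKP2 regions were called with MACS against IgG. Each deposited list gives positions and a score of the authors, whose scale is not stated for the SICER, CDT2 and SKP2 lists. Scores were compared within a list only. For H3K4me3 and H3K9me3 the methods give SICER as the caller, but the columns deposited match MACS2 broad peak output, in which the authors' fold enrichment is a ratio beside −log10 p and −log10 q.

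Regions that shared at least 1 base were counted as overlapping, on chromosomes 1 to 22. Shares carry Wilson 95% intervals. Score and width quintiles were set over all CDT2 regions. No test over samples could be made with 1 sample a group. Depth is unknown, so no value was weighted by it. The regions named are the 8 members with the highest CDT2 score and the 2 highest among members at a U2OS origin, at H3K4me3, at SKP2 in both HCT116 lists, at origins of both lines and at no other list. Members, classes and alternatives were chosen with earlier results of these data known. Alternatives varied the overlap, the gap, the width, the score limits and the chromosomes. Genes, motifs and sequences were not analysed here, as no hg19 genome was used. Overlap counting was checked on simulated regions. Python 3.11.15, NumPy 2.4.6, SciPy 1.17.1 and matplotlib 3.10.9 were used.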

Additional observations from a re-analysis of the deposited data

How the results depend on the processing

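Of 79 values recomputed under 10 alternatives, 47 stayed near the value reported (shares and medians within its 95% interval, numbers of members within 1.5 times) and 32 moved. The number of members ran from 2694 to 10783, the latter with the stronger CUL4A regions only. Of the alternatives, 3 were added after seeing the data (leaving out 2 Mb beside the longest empty stretch, no partner within 10 kb, and 1 member per run). With only CDT2 regions at or above the median score, 2694 members remained, with a median score of 34.47, a median width of 605 bp and shares of 47.9% at U2OS origins, 36.6% at HCT116 RepID KO origins, 4.23% at H3K4me3, 13.0% at SKP2 of WT and 8.80% at SKP2 of RepID KO cells. With no CUL4A or H3K9me3 within 10 kb, the values were 3698 members, 469 bp, 37.0%, 14.8%, 3.0%, 5.06% and 4.35% in the same order, the score left out. Requiring 50% of a region to be covered gave 512 bp, 22.5% at HCT116 RepID KO origins, 3.03% at H3K4me3, 4.20% at SKP2 of WT and 2.96% at SKP2 of RepID KO cells. A gap of up to 1 kb gave 45.6% at U2OS origins, 26.3% at HCT116 RepID KO origins, 7.60% at SKP2 of WT and 5.82% at SKP2 of RepID KO cells. With the stronger CUL4A regions only, the shares were 46.9%, 26.6%, 4.79% at H3K4me3 and 6.10% at SKP2 of WT cells. Without the 2 Mb beside the empty stretch they were 45.5% and 22.4%, and with 1 member per run 45.3% and 21.5%, at U2OS and HCT116 RepID KO origins. The cause of these moves was not tested, except that the first 2 sets hold fewer members by construction. The 50% and 1 kb settings were also applied to the overlap with the other lists. Meeting those lists was therefore counted more strictly or more loosely by construction. Replacing each region by 1 kb around its centre fixes the width, so no width was given there. No paired analysis was possible because each condition had 1 sample, which also left no replicate to leave out.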

Other observations

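Along the chromosomes, the number of members in 563 windows of 5 Mb followed the number of regions of the other lists less closely than the class with CUL4A and H3K9me3 did. Spearman's rho between members and CUL4A regions was 0.43, and for the class with both it was 0.91. Against H3K9me3 regions the values were 0.45 and 0.84, and against U2OS origins 0.53 and 0.82. The H3K9me3 only class was close to the members, with 0.39, 0.54 and 0.52. Windows share the libraries and differ in how much sequence can be mapped, and the classes were chosen by overlap with CUL4A and H3K9me3, so these values are descriptions with no test.

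The surroundings of the members were not empty of CUL4A. CUL4A regions covered 7.0% of positions 9 to 10 kb from the members' centres, compared with 18.6% around the CUL4A only class and 5.98% around the H3K9me3 only class.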
